A study of Mus musculus with 6 samples.

Results

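Small leucine-rich proteoglycans (SLRPs) are secreted matrix proteins, and 8 of them were read here together with dermatopontin, a small matrix protein that binds decorin and has no leucine-rich repeats. The 9 genes, out of 36163 gene names on the arrays, were Dcn, Bgn and Aspn of class I, Fmod, Lum, Prelp and Omd of class II, Ogn of class III, and Dpt. They were chosen by family name with the change of several of them after CSF-1 already known from these same arrays, so their changes against unstimulated cells are given as a description and carry no p-value. Decorin (Dcn) and osteoglycin (Ogn) moved in opposite directions: Dcn was 4.23-fold higher at 24 h and 6.85-fold higher at 48 h, whereas Ogn was 15.6-fold and 10.3-fold lower. Omd, Aspn, Dpt and Bgn were also lower at both times, Fmod was not called, and Lum and Prelp were too dim to test.

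The cells were N18-Fms (N18-CFMS in the labels), a line of murine prostate cancer cells derived from the TRAMP mouse model. N18 is a single subclone, luciferase-transfected and neomycin-selected, that was transduced with a retrovirus carrying murine c-fms, the gene of the CSF-1 receptor, and then sorted for the receptor. All 3 groups shared this background and grew in medium with serum and dihydrotestosterone. The comparison asked which transcripts respond to CSF-1: control cells were given vehicle ("unstimulated" below), and the others recombinant murine CSF-1 (100 ng/mL) over 24 h or over 48 h. The labels and the study's results give these times, while its methods state shorter ones. There were 2 arrays per group, from 2 independent experiments.

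SLRPs consist of a protein core of leucine-rich repeats that, in most members, carries glycosaminoglycan chains. Decorin and biglycan bear chondroitin or dermatan sulfate, while fibromodulin, lumican, osteomodulin and osteoglycin can bear keratan sulfate. They bind collagen fibrils and set their spacing and diameter, and several hold growth factors such as TGF-β or act on cell surface receptors. In most tissues fibroblasts and related mesenchymal cells are their main source, and decorin is known in tumor stroma as a restraint on receptor tyrosine kinase signaling.

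Levels are given as the log2 of the background-subtracted spot signal minus the 75th percentile of the same array, so 0 is the signal at that percentile and a difference of 1 is 2-fold. Between 58.7% and 72.0% of the 59305 spots per array were well above background and 0 were saturated, and replicate arrays correlated with r between 0.993 and 0.994 across 24648 genes, which are not independent. The 24648 genes whose signal stood well above background on each array of some group were tested with limma. A gene was called at a Benjamini-Hochberg adjusted p under 0.05 over all of them, which gave 1977 higher and 1477 lower genes at 24 h, while 48 h gave 1621 higher and 1820 lower genes. With each array centered on its median instead, the changes shifted (median change -0.25 at 24 h and -0.14 at 48 h, from 0.04 and -0.04), and the calls became 1197 higher and 3706 lower, and 1204 higher and 1890 lower. With 2 arrays against 2 an exact permutation test cannot go below p = 0.333, so the number of arrays limits the precision, and the single array of 24 h replicate 1 was hybridized on a second slide apart from the other 5. Csf1r, the transduced receptor, was between 4.88 and 5.34 on all 6 arrays and was not called at either time.

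Each member had 1 probe, read by 1 spot per array except for Dpt, whose probe was spotted 10 times. By the array's own annotation on mm9, the Ogn probe lies at chr13:49719549-49719608, the Omd probe at chr13:49687847-49687906 and the Aspn probe at chr13:49662479-49662538, all on the plus strand within one run of SLRP genes. The Dcn probe lies at chr10:96980233-96980292 and the Lum probe at chr10:97035210-97035269, also on the plus strand. The Dpt probe is at chr1:166753703-166753762, plus strand, and the Bgn probe at chrX:70738554-70738613, plus strand. The Fmod probe is at chr1:135943998-135944057 on the plus strand and the Prelp probe at chr1:135806855-135806914 on the minus strand.

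RefSeq promoter sequence (GRCm38.p6) was held for 7 of the 9 members, and the entries of Dcn and Lum were missing. The 250 bases upstream of the start are shown for Ogn, Omd and Aspn, because these neighboring genes were lower together, and for Dpt, which was lower from another chromosome. The windows are chr13:49607765-49608014 for Ogn, chr13:49582212-49582461 for Omd, chr13:49544193-49544442 for Aspn and chr1:164796413-164796662 for Dpt, all on the plus strand and 5′ to 3′. Capitals mark matches, on either strand, to the TATA box (TATAAA), the CCAAT box (CCAAT), the GAS element bound by STAT factors (TTCNNNGAA), the AP-1 site (TGANTCA) or the CRE (TGACGTCA).
Ogn: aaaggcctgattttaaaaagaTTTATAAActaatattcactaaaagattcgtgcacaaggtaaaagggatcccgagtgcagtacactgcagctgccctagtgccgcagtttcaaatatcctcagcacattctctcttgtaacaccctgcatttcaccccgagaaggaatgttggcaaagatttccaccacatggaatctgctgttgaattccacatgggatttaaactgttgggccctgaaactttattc
Omd: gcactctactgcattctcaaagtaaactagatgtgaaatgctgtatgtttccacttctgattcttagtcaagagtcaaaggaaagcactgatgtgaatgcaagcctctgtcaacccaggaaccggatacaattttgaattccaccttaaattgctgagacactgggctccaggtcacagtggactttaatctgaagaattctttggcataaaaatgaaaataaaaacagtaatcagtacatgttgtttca
Aspn: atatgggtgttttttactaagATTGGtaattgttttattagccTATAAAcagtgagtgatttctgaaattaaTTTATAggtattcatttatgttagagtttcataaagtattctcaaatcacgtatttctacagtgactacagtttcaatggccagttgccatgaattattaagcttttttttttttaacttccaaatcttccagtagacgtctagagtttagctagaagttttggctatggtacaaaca
Dpt: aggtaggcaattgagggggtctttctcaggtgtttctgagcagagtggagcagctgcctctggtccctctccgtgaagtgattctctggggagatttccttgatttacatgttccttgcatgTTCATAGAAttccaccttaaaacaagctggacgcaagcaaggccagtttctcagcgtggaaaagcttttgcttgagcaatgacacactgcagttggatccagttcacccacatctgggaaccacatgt
Ogn held TATAAA on both strands in one overlapping stretch 229 bases before its start, Aspn held it 207 and 178 bases before and a CCAAT box 229 bases before, and Dpt held 1 GAS match 128 bases before. Omd matched none of the 5 motifs. Of the members whose windows are not shown, Bgn, which was also called lower and lies on chromosome X, matched none, and neither did Fmod. Prelp held a CCAAT box 15 bases before its start. Among 32851 RefSeq promoter windows of the same length, 12.4% held the TATA box letters, 33.8% the CCAAT box, 7.02% the GAS element, 6.75% the AP-1 site and 1.55% the CRE. The G and C content was 30.0% for Aspn, 38.4% for Omd and 42.0% for Ogn, each under the lower quartile of 45.2% over all windows, against 48.8% for Dpt, 51.2% for Fmod, 55.6% for Prelp and 64.4% for Bgn. A match is a string of letters and not a bound site, and the motifs were chosen after the members' values were known.

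Dcn encodes decorin, the dermatan sulfate proteoglycan that decorates collagen fibrils. Its level was -3.27 and -2.50 in unstimulated cells, -0.96 and -0.65 after 24 h of CSF-1, and -0.34 and 0.12 after 48 h. All 4 stimulated arrays lay above both unstimulated arrays, and both 48 h arrays lay above both 24 h arrays. In spot signal, this was a rise from 57.1 and 108 units to 294 and 380 units at 24 h and 437 and 656 units at 48 h. The log2 change was 2.08 (SE 0.31) at 24 h and 2.78 (SE 0.31) at 48 h. In RNA from a whole culture, a change in the number of expressing cells and a change in RNA per cell cannot be told apart, for Dcn and for every other member. The call at 24 h was lost without 24 h replicate 1, where the change was 2.23, and without 24 h replicate 2, where it was 1.92, and also with no filter on dim probes. At 48 h the change ran from 2.39 to 3.16 with 1 array left out, and normexp background correction, another way of removing background, lowered the 24 h change to 1.36.

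Ogn encodes osteoglycin, also called mimecan, a small keratan sulfate proteoglycan of bone and vessel wall matrix. Its level was 0.38 and 0.73 in unstimulated cells, -3.94 and -2.88 at 24 h, and -2.55 and -3.08 at 48 h. The unstimulated arrays were the only 2 above the 75th percentile, and all 4 stimulated arrays lay far below them without overlap. In spot signal, 715 and 1013 units became 37.2 and 81.3 units at 24 h and 94.6 and 71.5 units at 48 h, all still well above background. The log2 change was -3.96 (SE 0.39) at 24 h and -3.36 (SE 0.39) at 48 h, and without 24 h replicate 1, the array on the second slide, the change at 24 h was -3.43. The call at 48 h was lost without unstimulated replicate 1 (change -3.54) and without unstimulated replicate 2 (change -3.19).

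**Figure D1:**
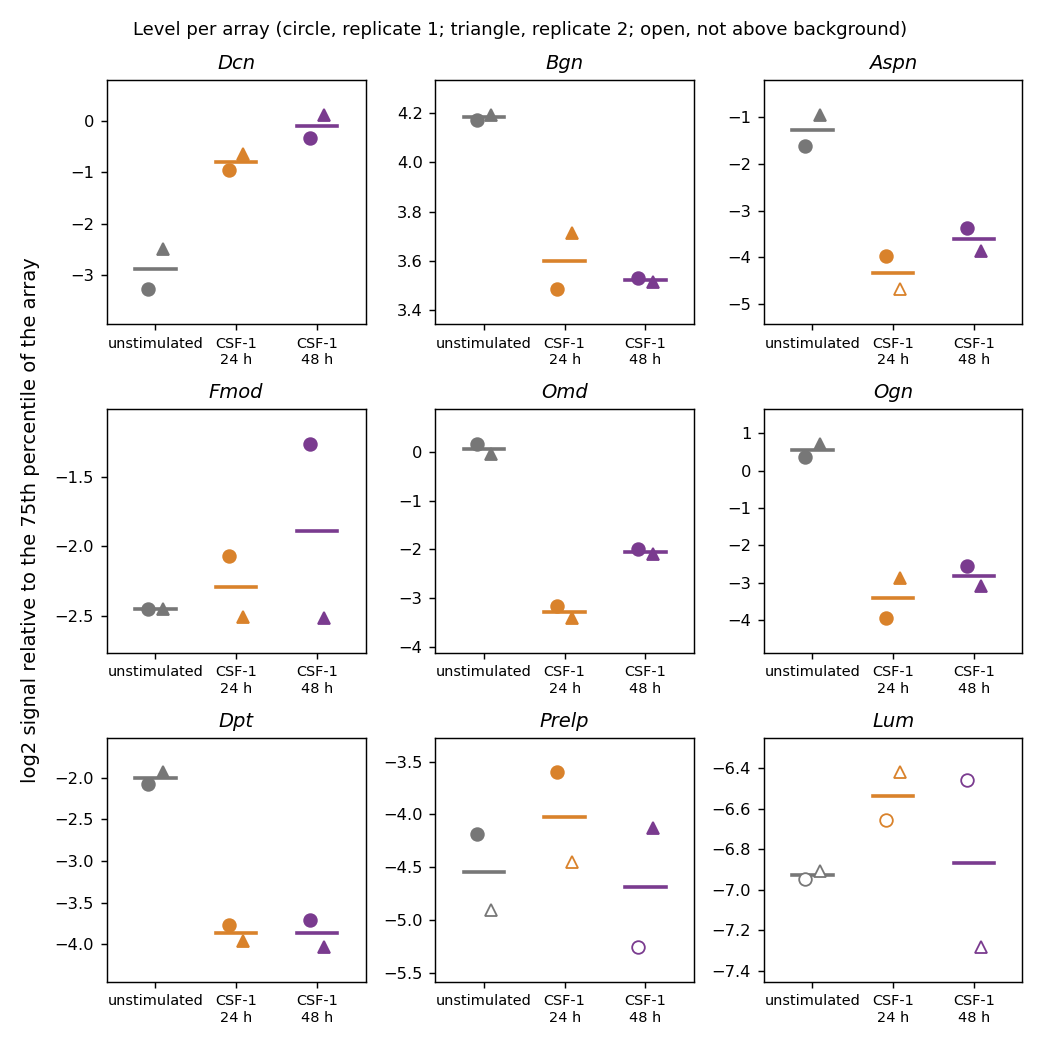
Level of each of the 9 genes on each array, as log2 signal relative to the array's 75th percentile, for unstimulated cells and for cells stimulated over either time; circles are replicate 1, triangles replicate 2, bars the group mean (n = 2), open symbols not well above background, and each panel has its own vertical range. Dcn climbs from -3.27 and -2.50 to -0.34 and 0.12 at 48 h, while Ogn drops from 0.38 and 0.73 to between -3.94 and -2.55 on the 4 stimulated arrays.

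Bgn encodes biglycan, the class I relative of decorin with chondroitin or dermatan sulfate chains. Its level was 4.17 and 4.19 in unstimulated cells, 3.49 and 3.71 at 24 h, and 3.53 and 3.52 at 48 h. The 4 stimulated arrays lay below both unstimulated arrays, and the 24 h arrays enclosed the 48 h arrays. The log2 change was -0.58 (SE 0.12) at 24 h and -0.66 (SE 0.12) at 48 h, or 1.5-fold and 1.58-fold lower. Over the 18 alternatives the change ran from -0.87 to -0.46 at 24 h and from -0.76 to -0.54 at 48 h. Its 24 h call was lost with any one of the 6 arrays left out (changes of -0.70 to -0.47), and its 48 h call without either unstimulated array or either 48 h array (-0.67 to -0.65). In all, Bgn lost its call in 9 of the 18 alternatives at 24 h and in 6 at 48 h.

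Aspn encodes asporin, a class I SLRP that binds collagen and TGF-β and usually lacks glycosaminoglycan chains. Its level was -1.62 and -0.95 in unstimulated cells, -3.97 and -4.68 at 24 h, and -3.37 and -3.87 at 48 h. The 24 h replicate 2 array was not well above background, so its value there is only an upper bound and the 24 h mean rests on 1 measured array of 2. The 4 stimulated arrays all lay below the lower unstimulated array. The log2 change was -2.33 (SE 0.35) at 48 h, a 5.04-fold lower level. At 24 h it was -3.04 (SE 0.35), a value that takes the signal of the dim array as it was read. With normexp background correction the changes were -1.52 at 24 h and -1.38 at 48 h. The 48 h call was lost without unstimulated replicate 1 (-2.67), unstimulated replicate 2 (-2.0) or 48 h replicate 2 (-2.08), and with no filter on dim probes.

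Omd encodes osteomodulin, or osteoadherin, the keratan sulfate SLRP of mineralized matrix. Its level was 0.17 and -0.04 in unstimulated cells, -3.16 and -3.40 at 24 h, and -1.99 and -2.09 at 48 h. The 3 groups did not overlap in any pair, and the 48 h arrays lay between the other groups. The log2 change was -3.35 (SE 0.14) at 24 h, or 10.2-fold lower, and -2.10 (SE 0.14) at 48 h, or 4.30-fold lower. Over the 18 alternatives the change ran from -3.63 to -2.35 at 24 h and from -2.21 to -1.64 at 48 h.

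Fmod encodes fibromodulin, which binds type I collagen beside lumican. Its level was -2.45 and -2.45 in unstimulated cells, -2.07 and -2.51 at 24 h, and -1.26 and -2.51 at 48 h. In each stimulated group one array was above and the other below the unstimulated arrays, so the groups overlapped. The changes of 0.16 at 24 h and 0.56 at 48 h (SE 0.42) were not called, and the 48 h value rested on replicate 1, without which it was -0.06.

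Prelp encodes an SLRP with an arginine- and proline-rich end that anchors basement membrane to matrix. It was -4.19 and -4.90 in unstimulated cells, -3.60 and -4.45 at 24 h, and -5.25 and -4.13 at 48 h. Only 1 array of each group was well above background, so it was not tested. Lum, the lumican gene that neighbors Dcn, was between -7.28 and -6.42 and was not well above background on any array, so no change can be given for it.

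Dpt encodes dermatopontin, which binds decorin and speeds collagen fibril formation. Its level, the mean over the usable spots, was -2.07 and -1.93 in unstimulated cells, -3.77 and -3.96 at 24 h, and -3.71 and -4.03 at 48 h. The 4 stimulated arrays all lay below both unstimulated arrays, and the 2 times overlapped. The log2 change was -1.86 (SE 0.16) at 24 h and -1.87 (SE 0.16) at 48 h, or 3.63-fold and 3.64-fold lower. With normexp background correction the changes were -0.89 and -0.95. The repeated spots show the error within an array: their SD was 0.11 and 0.14 in unstimulated cells and between 0.12 and 0.35 in stimulated cells. The lowest unstimulated spot, at -2.29, was above the highest stimulated spot used, at -3.40. On 24 h replicate 1, 2 spots were flagged as outliers and 8 were used, and 7 of 10 spots were well above background on 24 h replicate 2 and on 48 h replicate 1.

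**Figure D2:**
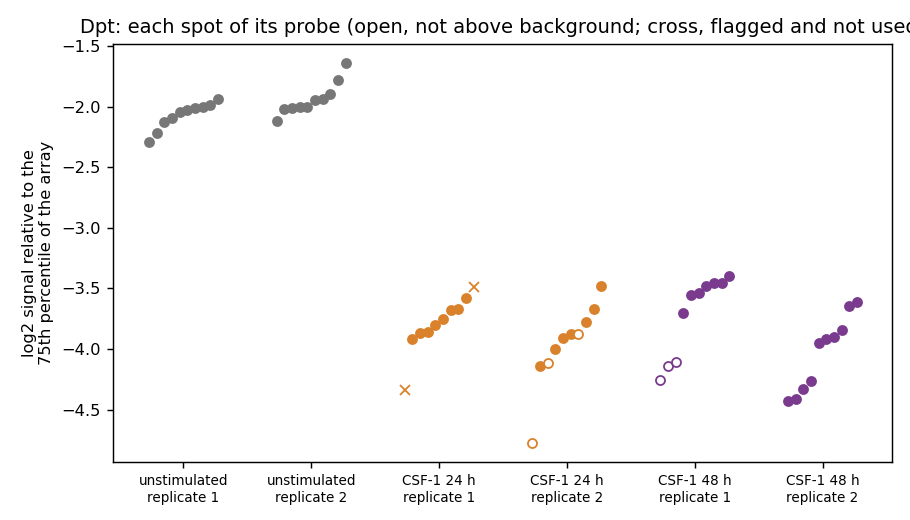
The 10 spots of the Dpt probe on each of the 6 arrays, as log2 signal relative to the array's 75th percentile, sorted within an array; open circles were not well above background and crosses were flagged as outliers and not used. All unstimulated spots lie at or above -2.29 and all stimulated spots used lie at or below -3.40.

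Across the 9 members, 7 passed the filter on dim probes and were tested. At 24 h, 5 of the 7 (Ogn, Omd, Aspn, Dpt and Bgn) were called lower, against 5.99% of all genes tested, and 1 (Dcn) was called higher, against 8.02%. At 48 h these 5 were again called lower, against 7.38% of all genes tested, and Dcn was called higher, against 6.58%. The members were selected on these contrasts, so nothing is read from the counts. Both comparisons share the unstimulated arrays. The least changed member called was Bgn, at 1.5-fold and 1.58-fold lower, and Fmod was the one tested member not called. Ordered by their change at 24 h, the members ran from Ogn (-3.96), Omd (-3.35) and Aspn (-3.04, with 1 of 2 arrays measured) through Dpt (-1.86), Bgn (-0.58) and Fmod (0.16) to Dcn (2.08). The 95% intervals of Ogn (-4.95 to -2.98), Omd (-3.70 to -2.99) and Aspn (-3.91 to -2.17) overlapped one another, and so did those of Aspn and Dpt (-2.26 to -1.46) and of Bgn (-0.89 to -0.28) and Fmod (-0.88 to 1.21), whereas the interval of Dcn (1.31 to 2.85) overlapped none. On slide 1 alone, without 24 h replicate 1, the 24 h changes were -3.43 for Ogn, -3.46 for Omd, -1.96 for Dpt, -0.47 for Bgn, -0.06 for Fmod and 2.23 for Dcn, and no value is given for Aspn, which was not well above background on the 24 h array left.

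**Figure D3:**
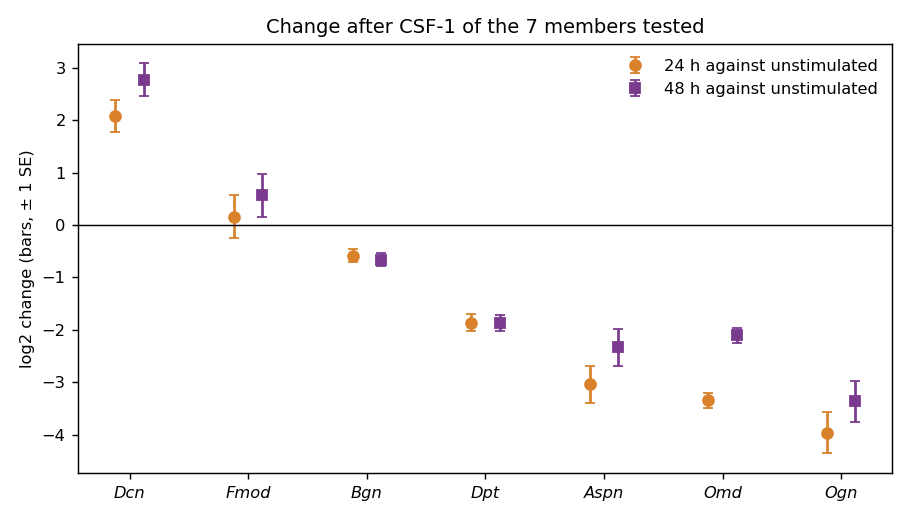
Change in log2 level of the 7 tested members at 24 h (circles) and 48 h (squares) of CSF-1 against unstimulated cells, with bars of ± 1 SE from the fit over all 6 arrays. Dcn lies above 0 at both times, the bars of Fmod cross 0 at 24 h, and Bgn, Dpt, Aspn, Omd and Ogn lie below 0.

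From 24 h to 48 h, 0 of the 24648 genes were called by limma (0%), although 3357 had an unadjusted p under 0.05; other settings of limma called between 0 and 286 genes, and an unadjusted p under 0.05 with a 2-fold change, the study's thresholds, gave 560. Omd was 1.24 higher at 48 h than at 24 h (95% interval 0.88 to 1.60, adjusted p = 0.104 by limma), or 2.36-fold. With normexp background correction the difference was 0.68 and with an intensity trend in the prior spread it was 1.24, and both of these were called (adjusted p = 0.0446 and 0.0216 by limma). In all, the difference was called in 4 of the 18 alternatives, the other two being normexp with quantile normalization and the study's thresholds, and was not called in 14. Dcn was 0.70 higher at 48 h (interval -0.07 to 1.47, adjusted p = 0.405 by limma). The members were chosen with earlier results of these arrays known, so their p-values between the times are given as a description. The differences of Aspn (0.71, interval -0.16 to 1.58) and Ogn (0.60, interval -0.39 to 1.58) were not called, and that of Ogn was 0.07 without 24 h replicate 1. Dpt (-0.01, interval -0.40 to 0.39) and Bgn (-0.08, interval -0.38 to 0.23) had the narrowest intervals around 0, and Fmod had the widest (0.40, interval -0.64 to 1.45).

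SLRP genes lie in short runs on the mouse chromosomes, and the members of one run can be read in gene order. On chromosome 13 the RefSeq order is Cenpp, Ecm2, Aspn, Omd, Ogn, Nol8 and Iars. The log2 change at 24 h was -0.90 for Cenpp, a centromere protein gene, then -3.04 for Aspn, -3.35 for Omd and -3.96 for Ogn, and then -0.40 for Nol8 and -0.54 for Iars. Ecm2, itself an SLRP-like gene between Cenpp and Aspn, was not well above background on any array. At 48 h the values in the same order were -0.97, -2.33, -2.10, -3.36, -0.72 and -0.48, and Cenpp was called lower at both times (adjusted p = 0.00892 and 0.00738 by limma), although its 24 h call was lost without unstimulated replicate 2 or either 24 h array (adjusted p up to 0.0539). Nol8 was called at 48 h and Iars at 24 h, calls that were lost with any array left out (adjusted p up to 0.18 and 0.179). On the far side of Cenpp, Fgd3 was -2.20 at 24 h and -1.53 at 48 h, and Bicd2 and Ippk between Fgd3 and Cenpp were not called; these genes lie outside the naming rule and were chosen after their values were seen.

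On chromosome 10, Dcn is followed by Lum, Kera and Epyc, and these 3 SLRP genes were not well above background on any array, so Dcn was the only one of its run that was measured. Btg1, an antiproliferative gene before it, was called higher, by 0.77 at 24 h and 0.68 at 48 h (SE 0.12; adjusted p = 0.0177 and 0.025 by limma), but its 48 h call was lost with any array left out and its 24 h call without either unstimulated or either 24 h array (adjusted p up to 0.119 and 0.0891). On chromosome 1, Optc was not well above background on any array and Btg2 after Fmod was not called, while Chit1, a chitinase gene, was called at least 1.65-fold higher at 24 h (adjusted p = 0.0199 by limma, and up to 0.0917 without either unstimulated or either 24 h array), and it entered the test only through the 24 h group. Haus7 next to Bgn was called lower with changes of -0.91 and -1.07 (SE 0.11; adjusted p = 0.00938 and 0.00616 by limma), with the 24 h call lost without unstimulated replicate 2 or either 24 h array (adjusted p up to 0.0578). Atp1b1, the sodium pump subunit gene next to Dpt, was called lower with changes of -2.33 and -1.91 (SE 0.27; adjusted p = 0.00908 and 0.0154 by limma), with the 48 h call lost without any one of the 4 arrays compared and the 24 h call without unstimulated replicate 2 (adjusted p up to 0.0776 and 0.0542). Of 19 neighbors measured, 12 were tested, of which 2 were called higher and 4 lower at 24 h, and 1 higher and 4 lower at 48 h, against 8.02% higher and 5.99% lower of all genes tested at 24 h and 6.58% and 7.38% at 48 h. They were Btg1 and Chit1 higher and Cenpp, Iars, Haus7 and Atp1b1 lower at 24 h, and Btg1 higher and Cenpp, Nol8, Haus7 and Atp1b1 lower at 48 h.

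**Figure D4:**
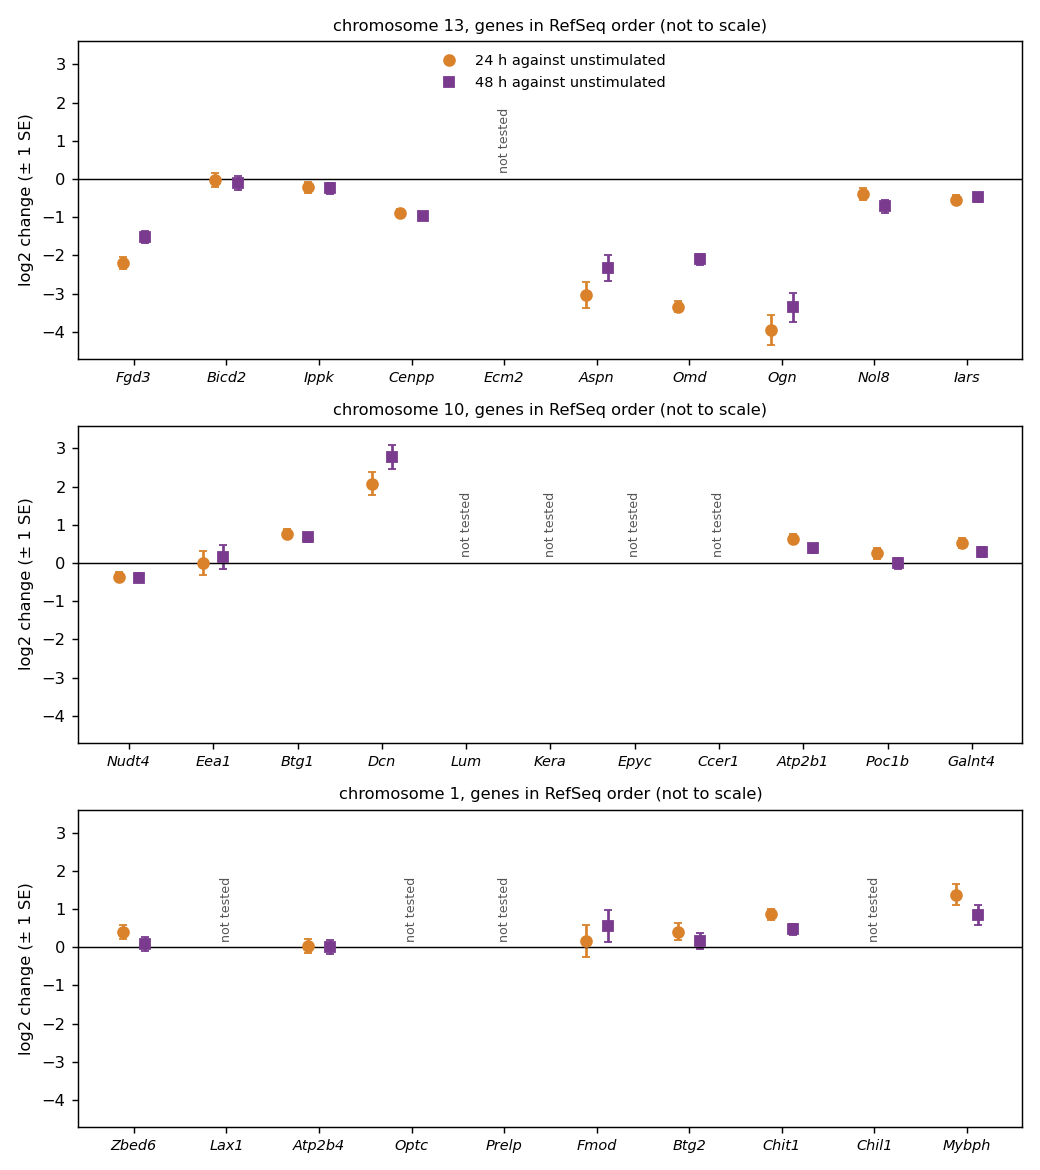
Change in log2 level at 24 h (circles) and 48 h (squares) of CSF-1 against unstimulated cells, with bars of ± 1 SE, for genes in RefSeq order around the SLRP runs of chromosomes 13, 10 and 1; positions are ranks and not distances, and genes too dim to test are marked. Aspn, Omd and Ogn lie at -2.10 or below side by side, and Dcn rises to 2.08 and 2.78 beside Lum, Kera and Epyc, which could not be tested.

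The genes most like Ogn and Dcn were taken by the smallest Euclidean distance between centered log2 levels over the 6 arrays among 13852 genes with a RefSeq symbol. For Ogn they were Aldh1a7 (distance 0.58), Prss23 (1.06), Krtap1-5 (1.08), Aldh1a1 (1.09) and Aoc3 (1.12), among which Aldh1a1 and Aldh1a7 encode aldehyde dehydrogenases. Aldh1a7 changed by -4.44 at 24 h and -3.60 at 48 h, and Aldh1a1 by -4.25 and -4.11. For Dcn they were Oas3 (0.28), Slfn10-ps (0.39), Endod1 (0.41), Ifitm6 (0.42) and Ctla2a (0.47). Oas3, an interferon-induced antiviral enzyme gene, changed by 1.94 and 2.68. These distances rest on 6 arrays and are a description.

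Other SLRPs outside the 9 were mostly dark. Of 11 measured, 4 were tested: Podnl1, Tsku, Chad and Chadl. Podnl1, a class V SLRP gene, was 0.23 and 0.06 in unstimulated cells, -1.62 and -1.92 at 24 h, and -0.98 and -1.15 at 48 h. It fell, with changes of -1.91 at 24 h and -1.21 at 48 h (SE 0.15; adjusted p = 0.00362 and 0.0107 by limma), and the 48 h call was lost without either unstimulated array or 48 h replicate 2 (adjusted p up to 0.0662). Tsku, an SLRP gene of developmental signaling, differed by -0.05 and -0.07, Chad by -0.03 and -0.31, and Chadl by -0.34 and -0.10, and none of these was called. Nepn stood well above background on 1 array alone, unstimulated replicate 2, where it was -0.26 against -5.14 on the other unstimulated array.

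The enzymes that build chondroitin and dermatan sulfate chains on decorin and biglycan moved in both directions. Of 28 tested, 5 were called higher and 4 lower at 24 h, and 6 higher and 3 lower at 48 h, with medians of 0.15 and 0.09 against 0.04 and -0.04 over all genes tested. The counts of this list and of those that follow stand beside 8.02% higher and 5.99% lower calls among all genes tested at 24 h, and 6.58% and 7.38% at 48 h. With any 1 array left out, fewer of all genes tested were called, in both directions and at both times. A drop in a list's calls with an array left out is therefore not particular to that list. Chst12 was called lower at both times, with changes of -1.16 and -0.68 (adjusted p = 0.00674 and 0.0255 by limma). So were Csgalnact2, with -0.89 and -0.61 (0.00986 and 0.0255), and Chst7, with -0.52 and -0.74 (0.0332 and 0.0139). Chst11, a chondroitin 4-sulfotransferase gene, was -1.61 and -0.73 in unstimulated cells, 0.75 and 1.03 at 24 h, and 0.46 and 1.18 at 48 h, a rise of 2.06 and 1.99 (SE 0.37; adjusted p = 0.026 and 0.0286 by limma). Csgalnact1, which starts the chondroitin chain, rose by 1.11 and 1.02 (SE 0.12), and Ust, a uronyl 2-sulfotransferase gene, by 0.98 and 0.96 (SE 0.21). Among the 3, only Csgalnact1 at 24 h was called with any array left out (adjusted p up to 0.042), and its 48 h call was lost without unstimulated replicate 1 (0.0526). Chst11 lost its 24 h call without unstimulated replicate 1 or either 24 h array and its 48 h call without any array other than unstimulated replicate 2 (adjusted p up to 0.106 and 0.109), and Ust lost both with any array left out (0.154 and 0.173). With 1 array left out, the list's calls at 24 h fell to between 1 and 4 higher and between 1 and 2 lower, and those at 48 h to between 0 and 2 in each direction. Any unstimulated or 24 h array lowered the 24 h higher calls by over 1.5 times, and any of the 6 arrays the 48 h higher calls. The balance of the counts depended on the scaling, as did that over all genes tested. With each array centered on its median this list had 2 higher and 5 lower at 24 h and 3 higher and 3 lower at 48 h. Over all 24648 genes tested the calls were then 1197 higher and 3706 lower at 24 h, and 1204 higher and 1890 lower at 48 h.

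For keratan sulfate, carried by fibromodulin, lumican and osteoglycin, 7 genes were tested, with 2 higher and 1 lower at 24 h and 3 higher and 0 lower at 48 h. B3gnt2, which extends the poly-N-acetyllactosamine backbone, was 0.51 and 0.55 in unstimulated cells, 1.79 and 1.83 at 24 h, and 1.21 and 1.46 at 48 h. It rose by 1.28 and 0.81 (SE 0.13; adjusted p = 0.006 and 0.0194 by limma), with the 48 h call lost without either unstimulated array or 48 h replicate 2 (adjusted p up to 0.0959). Chst4, a sulfotransferase gene, was dim, at -4.32 and -4.52 in unstimulated cells. It rose by 0.83 and 0.82 (SE 0.17), a call lost at 24 h without either unstimulated or either 24 h array and at 48 h with any array left out. The largest change in the list was the fall of Chst1, by -1.57 at 24 h and -1.36 at 48 h (SE 0.37). Chst1 was called lower at 24 h (adjusted p = 0.0482 by limma) and not at 48 h (0.068). Its 24 h call was lost without either unstimulated or either 24 h array. Centering each array on its median turned the balance of the list to 1 higher and 2 lower at both times. The calls over all genes tested also moved toward lower ones with this centering. Leaving out any array reduced the 48 h higher calls of the list, as it did those over all genes tested.

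Among the other proteoglycans and hyaluronan genes, 25 were tested, of which 6 were called higher and 1 lower at 24 h, and 5 higher and 0 lower at 48 h, with medians of 0.41 and 0.30. Of the higher calls at 24 h, Prg4 and Ncan were not well above background on either unstimulated array. They entered the test only through stimulated groups, and the counts and medians include them. The 3 genes with the largest mean change among those called at both times are syndecans, the membrane proteoglycans that act as co-receptors. Sdc3 was 0.49 and 0.57 in unstimulated cells, 1.65 and 1.52 at 24 h, and 2.17 and 2.13 at 48 h, a rise of 1.05 and 1.62 (SE 0.11; adjusted p = 0.00699 and 0.00211 by limma) that was called with any array left out. Sdc4 rose by 1.18 and 0.73 (SE 0.14) and Sdc1 by 0.93 and 0.68 (SE 0.11), with both 48 h calls lost without any one of the 4 arrays compared, Sdc4 at 24 h without unstimulated replicate 2, and Sdc1 at 24 h without unstimulated replicate 2 or 24 h replicate 2. The list's higher calls ranged from 2 to 6 at 24 h, lowered without either unstimulated array or 24 h replicate 2, and from 1 to 4 at 48 h, lowered without either unstimulated or either 48 h array.

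The collagens and crosslinking enzymes of the fibrils that SLRPs bind held more lower than higher calls. Of 23 tested, 1 was called higher and 8 lower at 24 h, and 1 higher and 9 lower at 48 h, against 5.99% and 7.38% lower among all genes tested, with medians of -0.40 and -0.31. Col1a2, a chain of type I collagen, was 7.63 and 7.58 in unstimulated cells, 6.24 and 6.08 at 24 h, and 6.64 and 6.10 at 48 h. It fell, with changes of -1.44 and -1.23 (SE 0.20; adjusted p = 0.0133 and 0.0208 by limma). Lox, the lysyl oxidase gene that crosslinks collagen, fell with changes of -1.40 and -1.34 (SE 0.18), and Fbn1, the fibrillin-1 gene, with changes of -1.28 and -1.57 (SE 0.14). Fbn1 was called with any array left out, whereas Col1a2 lost its 24 h call without either unstimulated or either 24 h array and its 48 h call without either unstimulated array or 48 h replicate 2 (adjusted p up to 0.0726 and 0.103). Lox lost its 24 h call without either 24 h array and its 48 h call without unstimulated replicate 2 or 48 h replicate 1 (adjusted p up to 0.0585 and 0.0603). The list's lower calls ranged from 3 to 8 at 24 h and from 2 to 9 at 48 h with 1 array left out, the 24 h count dropping without unstimulated replicate 2 or either 24 h array and the 48 h count without either unstimulated or either 48 h array.

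Among ligands and receptors that SLRPs are known to bind, 18 were tested, with 2 higher and 5 lower at 24 h (3 to 4 lower with 1 array left out, by over 1.5 times without either unstimulated array or 24 h replicate 1) and 2 higher and 4 lower at 48 h. Bmp4, a bone morphogenetic protein gene, was 2.23 and 2.03 in unstimulated cells, -1.21 and -1.14 at 24 h, and -0.29 and -0.41 at 48 h. It fell, with changes of -3.31 and -2.48 (SE 0.13; adjusted p = 0.00099 and 0.00129 by limma). Tgfb2, whose product decorin and biglycan can bind, fell with changes of -1.76 and -1.84 (SE 0.15; adjusted p = 0.00423 and 0.00337 by limma). Itga2, a collagen receptor subunit gene, was not well above background in unstimulated cells and rose to at least 2.81-fold higher at 24 h and at least 3.07-fold higher at 48 h (adjusted p = 0.00617 and 0.00484 by limma), the bound being taken against the dimmest signal well above background on those arrays. It entered the test only through the stimulated groups. Bmp4 and Tgfb2 were called at both times with any array left out. Egfr, a receptor that decorin binds, was -2.75 and -1.83, then -0.89 and 0.14, then -2.11 and -0.37, and was not called.

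The proteases reported to cleave SLRPs included Mmp13, with the largest log2 change of any tested gene in the lists. Of 10 tested, 2 were called higher and 2 lower at 24 h, and 4 higher and 2 lower at 48 h. Adamts4, an aggrecanase gene, was -2.27 and -1.81 in unstimulated cells, 2.14 and 2.32 at 24 h, and 0.61 and 1.07 at 48 h, a rise of 4.27 and 2.88 (SE 0.23; adjusted p = 0.00145 and 0.00315 by limma) that was called with any array left out. Adamts5, its relative, fell with changes of -1.36 and -2.13 (SE 0.17; adjusted p = 0.0103 and 0.00325 by limma), with the 24 h call lost without either unstimulated array (adjusted p up to 0.0572). Mmp13, a collagenase gene that can cleave biglycan and fibromodulin, was -4.74 and -3.36 in unstimulated cells, -1.12 and 0.05 at 24 h, and 0.46 and 1.68 at 48 h. It rose by 3.52 and 5.12 (SE 0.67; adjusted p = 0.0304 and 0.0121 by limma), with the 24 h call lost without either unstimulated or either 24 h array and the 48 h call without unstimulated replicate 1 or 48 h replicate 2 (adjusted p up to 0.111 and 0.0615). With 1 array left out the list's calls ranged from 1 to 3 higher and 0 to 2 lower at 24 h, moving without any unstimulated or 24 h array, and from 2 to 4 higher (fewer without unstimulated replicate 1) and 1 to 2 lower (fewer without either unstimulated array or 48 h replicate 2) at 48 h.

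**Figure D5:**
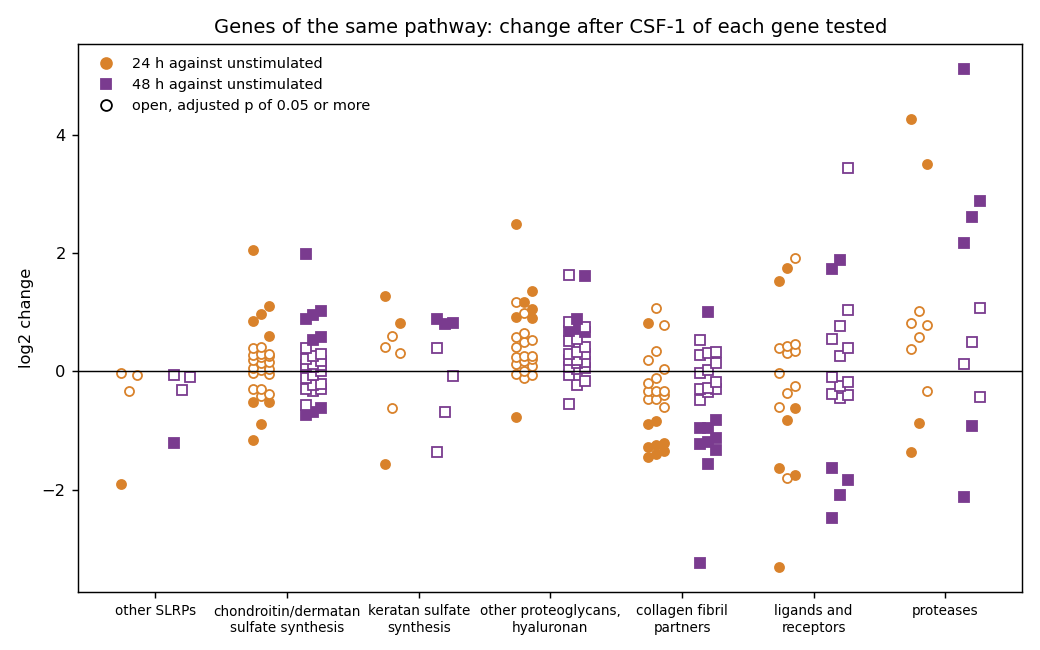
Change in log2 level of every tested gene of the 7 lists around the SLRP pathway, at 24 h (circles) and 48 h (squares) of CSF-1 against unstimulated cells; filled symbols had an adjusted p under 0.05 in limma and open symbols did not. The collagen fibril partners hold 8 and 9 lower calls against 1 and 1 higher, and the proteases reach from -2.13 (Adamts5) to 5.12 (Mmp13) at 48 h.

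The cell type markers were read on the same arrays. Of 20 fibroblast and mesenchymal markers, 17 were well above background on every array, and their summed level relative to the 75th percentile was 983 and 998 in unstimulated cells, 627 and 628 at 24 h, and 659 and 629 at 48 h. The sum is on a linear scale, so the brightest markers weigh most in it. These were Vim, S100a4 and Col1a2, with mean log2 levels of 8.34, 8.02 and 7.60 in unstimulated cells. Of the 17 tested, 2 were called higher and 7 lower at 24 h, and 0 higher and 7 lower at 48 h, with Col1a1, Col1a2 and Col3a1 shared with the collagen list. Acta2, smooth muscle actin, fell with log2 changes of -2.26 and -3.48 (SE 0.46), Pdgfrb with -1.91 and -1.12 (SE 0.22) and Tagln with -1.0 and -1.69 (SE 0.21). Leaving out an array could end each of these calls except that of Pdgfrb at 24 h, with the lower calls of the list ranging from 1 to 5 at 24 h and from 0 to 6 at 48 h. Any unstimulated or 24 h array could lower the 24 h count by over 1.5 times, and any unstimulated or 48 h array the 48 h count. Vim, the brightest, differed by -0.16 and -0.27 and was not called; S100a4 was called lower at 24 h alone. The part of these markers in the SLRP changes was not tested.

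Epithelial markers had a low summed level in these prostate cancer cells, although on each array most of them were well above background. Of 16 measured, between 9 and 12 per array were well above background, with a summed level of 3.08 to 3.80; Cdh1, Cldn3 and Ocln were above background on 0 of 6 arrays and Epcam on 1. Cldn7 and Krt7 were among the brightest. Of 11 tested, 4 had an unadjusted p under 0.05 by limma at 24 h, beside 7721 of all 24648 genes tested. Of the 11, limma called 0 at 24 h and 2 at 48 h, Krt8 with a change of 1.98 and Krt7 with -1.97 (adjusted p = 0.0106 and 0.0421 by limma). With 1 array left out these 48 h counts ranged from 0 to 2 higher and from 0 to 1 lower, the first moving without unstimulated replicate 2 or 48 h replicate 2 and the second without any unstimulated or 48 h array. Of 13 macrophage markers, between 7 and 10 per array were above background, with a summed level of 78.5 and 78.7 in unstimulated cells, 79.3 and 77.4 at 24 h, and 71.3 and 60.2 at 48 h, most of it from Itgam and the transduced Csf1r, followed by Fcer1g. Mrc1, the mannose receptor gene, rose by 4.27 and 3.56 (SE 0.12; adjusted p = 0.000845 and 0.000927 by limma) and Cd14 by 0.87 and 0.69 (SE 0.11; adjusted p up to 0.0594 and 0.0927 with 1 array left out), while Lyz2, Cd163 and Sfpi1 were above background on 0 of 6 arrays. The Cd14 call was lost at 24 h without unstimulated replicate 1 or either 24 h array and at 48 h without any unstimulated or 48 h array, and the part of these markers in the SLRP changes was not tested.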

How the data were processed

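RNA from 6 cultures, 2 per group, was labeled with Cy3 and hybridized to 1-color Agilent mouse arrays. The authors deposited, per array, spot intensities extracted with Agilent Feature Extraction 11.0.1, background-subtracted by that software, and a table of processed log2 values for 44569 probes, whose normalization is not given in the sources used here (array medians -0.037 to 0.17). Here log2 intensity minus each array's 75th percentile was computed. Control and outlier-flagged spots were left out, 303 probes were left without a usable spot, and spots of one probe were averaged. The brightest probe stood for a gene.

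Genes whose signal stood well above background on each array of some group were tested with limma 3.58.1 in R 4.3.3 (lmFit and eBayes, all 6 arrays, no covariate, Benjamini-Hochberg adjustment; 3 residual degrees of freedom). The procedure was checked on simulated data. A fold against a group not well above background is a lower bound, against the dimmest signal well above background on those arrays.

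Samples were grouped by their labels. The members, lists, motifs and tests were chosen with earlier results of these data known. Named genes were all members, the 3 genes of each list with the largest mean change among those called at both times, the 3 brightest markers (some markers are not reported here), other SLRPs well above background, neighbors called at both times, and the 5 genes nearest to Ogn and to Dcn. Genes named outside this rule (Fgd3, Bicd2, Ippk, Nol8, Iars, Btg2, Chit1, Egfr, Nepn, Krt8) were chosen after their values were seen. So were Chst1, Chst7, Chst12, Csgalnact2, Ncan, Prg4, Cdh1, Cldn3, Ocln, Epcam, Lyz2, Cd163 and Sfpi1. Of the genes tested, 13853 were named in RefSeq by symbol, 1577 by accession and 202 by synonym, and 9016 were unmatched. The 18 alternatives covered normalization, background correction, filters, probe choice, the fit and each array left out.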

Additional observations from a re-analysis of the deposited data

How the results depend on the processing

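Over 18 alternatives (17 for Aspn) the change at 24 h ran from 1.29 to 2.47 for Dcn, from -4.50 to -2.69 for Ogn and from -2.18 to -0.89 for Dpt. Genes called at 24 h (3454) numbered 1319 with no filter on dim probes, 1894 at an unadjusted p under 0.05 and 2-fold, and 899 to 2539 with 1 array left out. At 48 h (3441) they numbered 870 with no filter, 5477 with an intensity trend, 2116 from only the 2 groups compared, 1598 at an unadjusted p under 0.05 and 2-fold, and 889 to 2116 with 1 array left out. Between the times (0), median centering gave 5, normexp 211, normexp with quantile normalization 286, a filter on all 6 arrays 5, the trend 195, an unadjusted p under 0.05 and 2-fold 560, and 1 array left out 0 to 11 (11 without 48 h replicate 2). Members called lower at 48 h (5) were 3 with no filter and 2 to 5 with 1 array left out (2 without either unstimulated array, 3 without 48 h replicate 2); at 24 h they were 4 with any array left out. With all 6 arrays kept, the share of higher calls at 24 h also moved by over 10 percentage points with the trend (2154 higher and 2558 lower), normexp (2036 and 2330) and normexp with quantile normalization (1819 and 2060), and at both times with no filter (968 and 351, then 660 and 210) and at an unadjusted p under 0.05 and 2-fold (1444 and 450, then 1148 and 450). The causes were not tested.

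Values that changed sign were all uncalled. Fmod at 24 h was -0.12 with median centering, -0.099 with normexp and quantile normalization and -0.057 to 0.38 with 1 array left out (lowest without 24 h replicate 1). Fmod at 48 h was -0.061 to 1.19 and between the times -0.22 to 1.03 with 1 array left out (both lowest without 48 h replicate 1). Between the times, Bgn was 0.11 with median centering and -0.19 to 0.037 with 1 array left out (highest without 24 h replicate 2). Dpt was 0.31 with quantile normalization, 0.18 with median centering, 0.10 with normexp and quantile normalization, 0.038 in the authors' log2 values, and -0.17 to 0.15 with 1 array left out (above 0 without 24 h replicate 1 or 48 h replicate 2).

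With the replicate number as a block, 3800, 3967 and 0 genes were called. Deviations of same-numbered arrays correlated at 0.128, 0.0941 and 0.199 over the 3 pairs of groups. These values cannot show whether arrays with the same number came from the same experiment. The labels give only a replicate number, so the fit reported above had no block. A slide block was not run, since 24 h replicate 1 is alone on its slide and the block equals leaving it out. Groups of 2 arrays cannot be screened for outliers, and the dimmest members (Lum, Prelp, Aspn at 24 h) lie near background.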
